A study of Mus musculus with 4 samples.

Results

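Nom1 and Mnx1 lie at one end of the tile of chromosome 5 that is taken to hold Shh, and their nuclear RNA was compared here between mouse embryonic stem cells (ESC) and neural progenitor cells (NPC). The probes were chosen by position alone, as the non-control probes inside chromosome 5: 29715001-29850000 (mm9). They number 1029, of 12390 in the tile and 48316 on the array. They start at 29715047 and end at 29826615, so the last part of the stretch carries no probe. The ESC are of the 46c line, in which a fluorescent reporter under Sox1 control marks neural commitment, and the NPC were made from that line with the N2B27 protocol, a serum-free route to neural cells. Each group has 2 samples (ESC 1, ESC 2, NPC 1 and NPC 2), each read on 1 one-colour tiling array, and both groups share the 46c background. RNA came from chromatin of nuclei, and the labelled product keeps no strand, so the signal over a gene is the sum of both strands. The labels do not state whether the samples of a group were grown separately, and the p-values rest on the spread between these samples alone, which may be technical.

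NOM1 is a nucleolar protein that takes part in ribosome assembly, a task of nearly all growing cells. MNX1, also called HB9, is a homeodomain transcription factor known for specifying motor neurons and for its part in the developing pancreas. Nuclear RNA includes transcripts that are not yet spliced, so a tiling array can read a transcribed gene along its introns as well as its exons.

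The probes were split at approximate gene bounds that came with the definition of the stretch. The Nom1 interval runs from 29761000 to 29780000 and holds 204 probes, and the Mnx1 interval runs from 29799000 to 29805000 and holds 84. The gap before Nom1 holds 321 probes, the part between the genes 199 and the part after Mnx1 221. In the RefSeq gene table, which is on another build and served for names and order only, Nom1 follows Lmbr1 and the long noncoding RNA genes Gm42244 and Gm36086, and Mnx1 is followed by Gm24538, Gm6083 and Ube3c. No annotation of mm9 was used, so exons, introns and UTRs were not placed, and the labelled cell types were not checked against marker genes.

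The promoters of both genes are shown because the genes differ in the sequence from which transcription starts. The bases are the 250 before each start in RefSeq on GRCm38.p6, a different build from that of the probes, and capitals mark each CG pair. Nom1 (gene ID 433864) is read on the plus strand, at chr5:29434417-29434666. Mnx1 (gene ID 15285) is read on the minus strand, at chr5:29478471-29478720, so the genes point towards each other and the start of Mnx1 lies at the end of its interval that is farther from Nom1.
Nom1: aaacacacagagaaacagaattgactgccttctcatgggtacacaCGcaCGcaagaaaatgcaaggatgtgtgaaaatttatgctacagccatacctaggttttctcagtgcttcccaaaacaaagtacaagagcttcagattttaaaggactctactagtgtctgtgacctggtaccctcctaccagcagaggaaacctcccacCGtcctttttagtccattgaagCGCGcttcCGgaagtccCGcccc
Mnx1: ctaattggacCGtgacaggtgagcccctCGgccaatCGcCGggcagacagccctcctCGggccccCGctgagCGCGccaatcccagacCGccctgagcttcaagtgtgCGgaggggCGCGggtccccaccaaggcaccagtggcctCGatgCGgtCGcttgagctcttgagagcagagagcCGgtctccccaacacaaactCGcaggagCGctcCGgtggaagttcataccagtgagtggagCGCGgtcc
The Mnx1 sequence holds 21 CG pairs at a GC content of 66.4%, and 16.3% of 32851 RefSeq promoter windows of this length hold at least as many. The Nom1 sequence holds 7 at a GC content of 47.2%, and 46.3% of the windows hold at least as many. The motif CCGGAAGT, a long form of the site bound by ETS factors, was searched as an exact match on both strands. It has 1 match in the Nom1 window and 0 in that of Mnx1, while 2.88% of all windows hold it. Shorter and variant forms of the site were not searched. A match describes letters in this window only.

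Signal stood far above the negative control spots in both genes and in both cell types, and it was densest over Nom1. A spot counts as well above background by the mark of the scanning software, which at most 0.484% of the 660 negative control spots received on any array. In the Nom1 interval the share of probes so marked was 84.7% in ESC 1, 83.3% in ESC 2, 84.7% in NPC 1 and 73.9% in NPC 2. NPC 2 was the low array, and NPC 1 lay between the ESC arrays. In the Mnx1 interval the shares were 53.6%, 54.8%, 47.6% and 64.3% in the same order. Here NPC 2 was the highest array and NPC 1 the lowest, so the ESC values lay inside the NPC range. The gap before Nom1 gave 31.9%, 34.0%, 28.3% and 29.6%, with both NPC arrays below both ESC arrays. The part between the genes gave 56.3% to 61.4% in all 4 arrays, and the part after Mnx1 gave 39.8% and 41.3% in ESC and 37.1% and 38.9% in NPC.

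The group means of these shares were 84.0% ± 1.04 in ESC and 79.3% ± 7.61 in NPC over Nom1 (SD, n = 2). Over Mnx1 they were 54.2% ± 0.842 and 56.0% ± 11.8. Over the gap they were 32.9% ± 1.47 and 29.0% ± 0.881, and the change of the gap, -3.94 percentage points, was close to the -4.06 of the rest of the tile. With 2 arrays a group the smallest exact permutation p is 0.333 (two-sided), which the gap reached. The same exact permutation test gave p = 0.667 for Nom1 and p = 1 for Mnx1. Over the whole array the share went from 43.4% to 54.1%. Of the Nom1 probes 140 were well above background on all 4 arrays and 19 on none, against 34 and 23 for Mnx1 and 66 and 179 for the gap. Probes above background on both arrays of one group and on neither of the other numbered 2 each way for Nom1. For Mnx1 they numbered 3 in ESC alone and 1 in NPC alone. Such probes were not counted over the rest of the tile or the whole array, so these numbers cannot be called few or many.

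**Figure D1:**
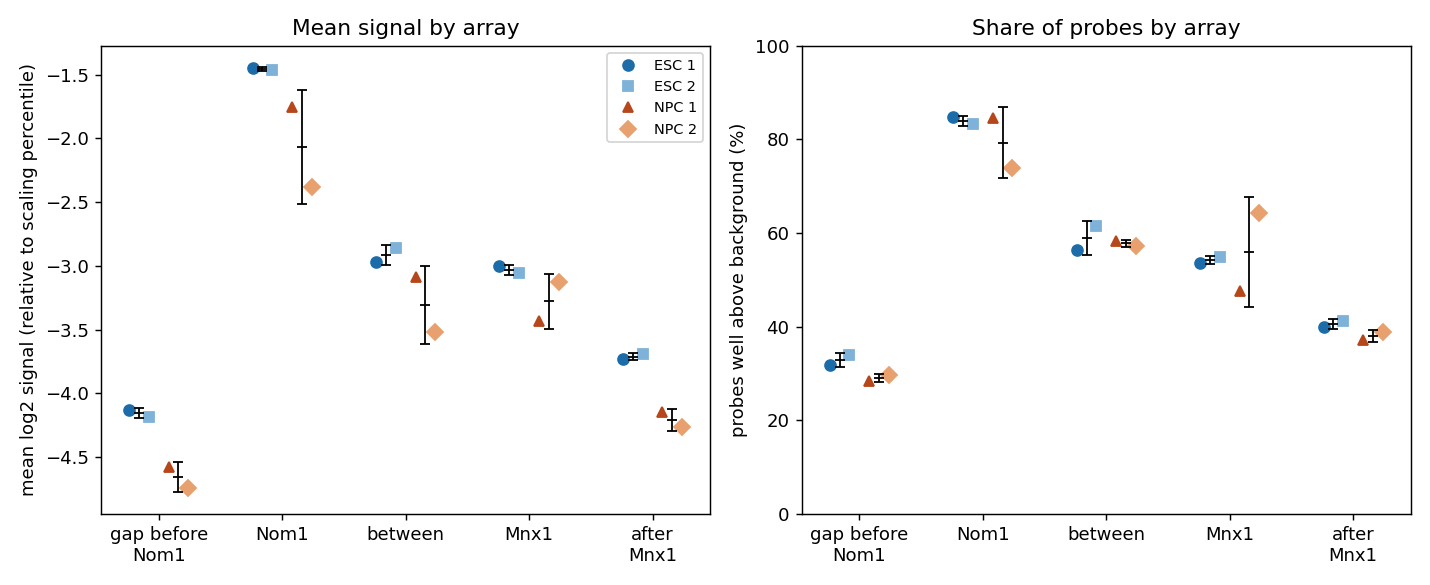
Mean log2 signal (left) and share of probes well above background (right, in percent) in the 5 intervals, with 1 point per array and black bars for the mean ± SD of 2 arrays per group. Over Nom1 the NPC arrays part at -1.75 and -2.38 (log2) while the ESC arrays coincide, and over Mnx1 the NPC arrays part the other way, at -3.43 and -3.13.

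Along the genome the signal over Nom1 formed 1 continuous block at a cut of 50%. In bins of 1 kb, the run of bins with 50% or more of their probes marked as well above background extended over 27 kb in ESC, 29760001-29787000, and over 26 kb in NPC, 29760001-29786000. All 19 bins of the Nom1 interval met that mark in both groups. The bin at 29775001 stood at 50% in ESC and the bin at 29770001 at 50% in NPC, so a higher cut would split the run. The share of such bins over the whole array is not given here. The run began sharply: the bin just before it, at 29759001, had 8.33% of its probe readings above background in ESC and 16.7% in NPC. The bin at 29760001 had 85.7% and 71.4%, and it lies before the approximate start of Nom1, so it is counted in the gap. Farther before the run, the bin at 29757001 had 75% in both groups. At the other end the signal ran on for several kb past the approximate gene end, and fell to 33.3% and 37.5% of readings by the bin at 29787001. It did not stay low: the bins at 29788001 and 29790001 gave 66.7% and 64.3% in ESC and 62.5% and 64.3% in NPC. Of the 19 bins between the genes, 14 in ESC and 13 in NPC had at least 50% of their readings above background. In the last bin of the Nom1 interval, at 29779001, ESC 1 read -0.16, ESC 2 0.66, NPC 1 0.61 and NPC 2 -0.01 (log2 relative to the scaling percentile of each array), so the groups overlapped.

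Mnx1 showed no such block. Of its 6 bins, 2 had at least 50% of the readings above background, in ESC and in NPC alike, and they lay towards opposite ends of the interval. The bin at 29800001, towards the end of the gene, gave 85.7% in ESC and 82.1% in NPC. The bin at 29804001, at the side of the start, gave 70.0% and 83.3%, with levels of -1.95 and -2.10 in ESC 1 and ESC 2 and -2.21 and -1.47 in NPC 1 and NPC 2. The NPC arrays there lay on either side of the ESC arrays. The 3 bins in between, from 29801001, gave 31.3% to 45.8% in ESC and 41.7% to 43.8% in NPC, which is near the share of the part after Mnx1.

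The gap before Nom1 had isolated signal. In 14 of its 43 bins in ESC and 12 in NPC at least 50% of the readings were above background, and some of these bins hold only 1 or 2 probes. The bin at 29735001, one of these, rests on 2 probes with means of 0.55 and 0.48 in ESC and -0.08 and -0.38 in NPC.

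**Figure D2:**
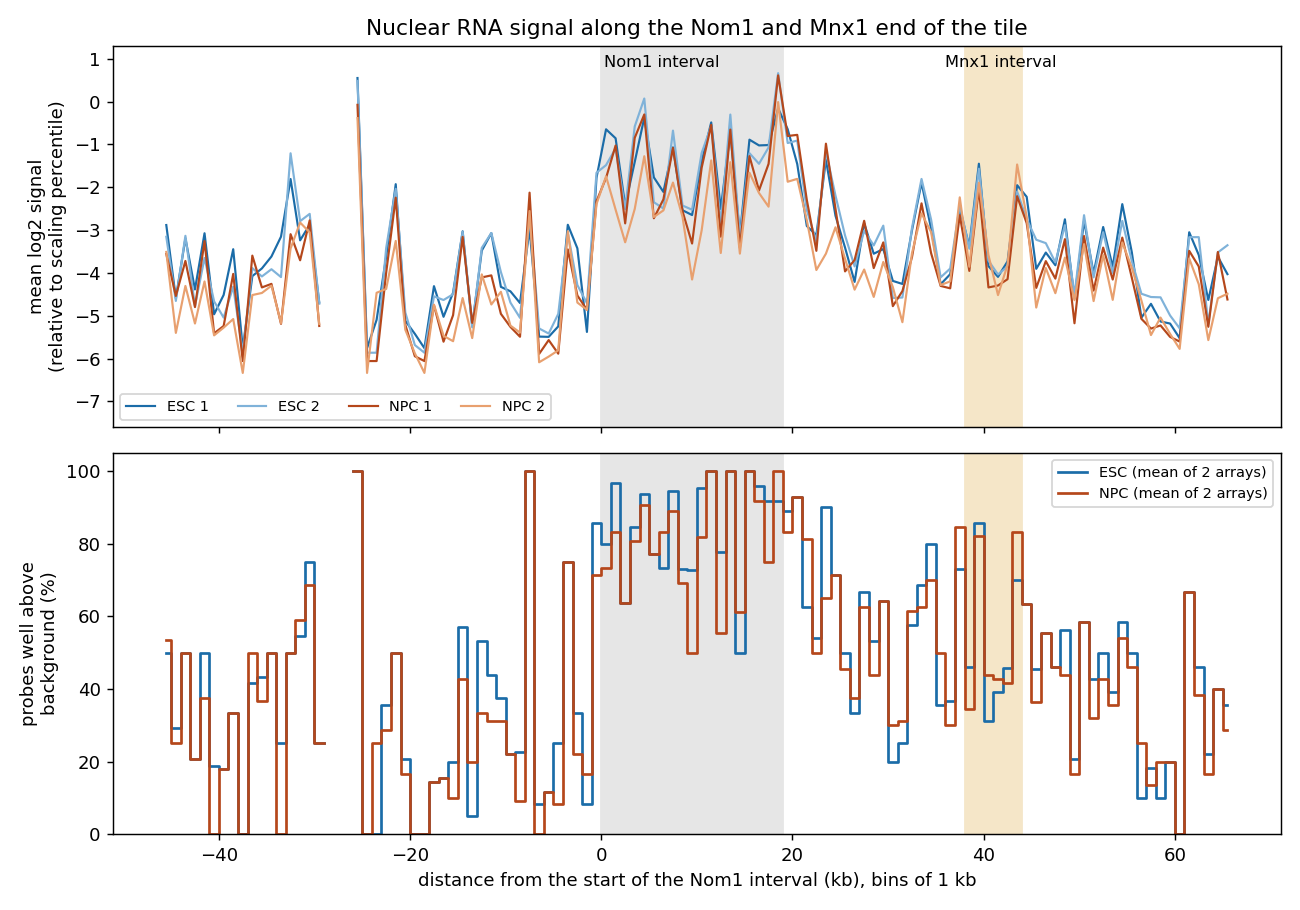
Mean log2 signal of each array (top) and share of probes well above background in each group (bottom, in percent) in bins of 1 kb, by distance from the start of the Nom1 interval in kb; grey marks the Nom1 interval, yellow the Mnx1 interval, and breaks are stretches without probes. The block over Nom1 starts in the bin just before the interval in both groups and runs past the end of the interval, and the Mnx1 interval holds 2 peaks.

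The order of probe values along each gene was alike in all arrays, with NPC 2 the least alike. Over 199 Nom1 probes Spearman's rho was 0.910 between the ESC arrays and 0.782 between the NPC arrays, and it was 0.950 between ESC 2 and NPC 1. Over 84 Mnx1 probes it was 0.916 for the ESC pair, 0.826 for the NPC pair and 0.783 to 0.882 between groups. These coefficients describe probes, which share each array's labelling and their own sequence, and are not tests.

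Before any scaling, the median intensity of the Nom1 probes was 61.5 in ESC 1, 74.3 in ESC 2, 71.0 in NPC 1 and 44.7 in NPC 2. That of the Mnx1 probes was 15.9, 17.3, 12.5 and 15.4 in the same order, and no spot of either interval was saturated. The low array thus was NPC 2 for Nom1 and NPC 1 for Mnx1 before and after scaling. For Nom1, NPC 1 lay between the ESC arrays in these unscaled medians, whereas in the scaled means below it lay under both. The change of each interval was measured on log2 intensity minus the scaling percentile of each array, so that 0 stands for a bright probe and lower values for dimmer ones. Levels of different intervals rest on different probes and are not set against each other. Over Nom1 the mean level was -1.45 in ESC 1, -1.47 in ESC 2, -1.75 in NPC 1 and -2.38 in NPC 2. Both NPC arrays lay below both ESC arrays, but they differed from each other by more than NPC 1 differed from ESC. The group means were -1.46 ± 0.015 and -2.07 ± 0.45 (SD, n = 2), so that NPC changed by -0.61 (SE 0.24), or 1.53-fold in favour of ESC, which did not pass (limma, Benjamini-Hochberg adjusted p = 0.0898). Without NPC 1 the change was -0.93 (limma adjusted p = 0.00312), and without NPC 2 it was -0.29 (0.0879). In such tests 1 array stands for its group with no spread of its own, the 2 arrays of the other group give the spread for both, and the ESC arrays lay close together. The size of the Nom1 change depended on the scale. It was -0.39 without the chromosome 12 tile (limma adjusted p = 0.311). Relative to the control spots named SRN it was -0.19 by their array medians and -0.33 by the median change per spot (limma adjusted p = 0.613 and 0.373). It was larger and passed with the percentile over all probes (-1.0, limma adjusted p = 0.000367) and in the authors' deposited values (-0.74, 0.0111). In those deposited values the ESC 1 column did not follow its own scanner signals (Spearman's rho 0.873), and 179 probes of the stretch have no value. With normexp and quantile normalization it was -0.41 and passed (limma adjusted p = 0.00825).

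Over Mnx1 the level was -3.00 in ESC 1, -3.06 in ESC 2, -3.43 in NPC 1 and -3.13 in NPC 2. NPC 2 lay just below the ESC arrays and NPC 1 was the low one. The change was -0.25 (SE 0.16), or 1.19-fold higher in ESC, and did not pass (limma adjusted p = 0.231). Without NPC 2 it was -0.40 and passed (limma adjusted p = 0.0428, the spread again being that of the ESC arrays), and without NPC 1 it was -0.095 (0.509). The sign of this change rests on the scaling: relative to these SRN spots it was 0.17 by their array medians and 0.037 by the median change per spot.

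The gap before Nom1 had levels of -4.13, -4.18, -4.57 and -4.74 in ESC 1, ESC 2, NPC 1 and NPC 2, and its fall of 0.50 (log2, SE 0.14, 1.42-fold) passed with a limma adjusted p of 0.0400. The part after Mnx1, at -3.73, -3.69, -4.15 and -4.27, fell by 0.49 (SE 0.13) and passed as well (limma adjusted p = 0.0376). The part between the genes, at -2.97, -2.86, -3.09 and -3.52, had a change of -0.39 (SE 0.19) and did not pass (limma adjusted p = 0.141). The 2 stretches that passed are those with the lowest shares of probes well above background, and neither is a gene interval. Both calls were lost without ESC 1 (limma adjusted p = 0.216 for the gap and 0.194 after Mnx1) and without ESC 2 (0.195 and 0.205), and both were lost with a common floor on all arrays (0.108 and 0.0935).

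The low end of the scale moves with these falls. The scanning software replaces dim spots by a floor of each array, which after scaling lay at -5.75 and -5.86 on the ESC arrays and at -6.06 and -6.33 on the NPC arrays. A spot at the floor on every array therefore has a change of -0.39 with no measured difference. In the gap 94 of 321 probes sat at the floor on all 4 arrays and 200 on at least 1, after Mnx1 37 and 119 of 221, in the Mnx1 interval 5 and 32 of 84, and in the Nom1 interval 5 and 27 of 204. The median change of single probes was -0.39 in the gap and after Mnx1, equal to that of the floor. The median change of all 964 windows on the array was -0.34. Relative to it the changes were -0.17 for the gap, -0.28 for Nom1, 0.088 for Mnx1 and -0.16 after Mnx1.

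Probes measured well above background on all 4 arrays avoid the floor, and they too were mostly lower in NPC. Over the 137 such Nom1 probes with no outlier spot, means were -0.60 and -0.65 in ESC 1 and ESC 2 and -0.95 and -1.18 in NPC 1 and NPC 2. The groups did not overlap (exact permutation p = 0.333, the smallest possible here), the change was -0.44, and 115 probes were lower and 22 higher. Over 34 Mnx1 probes the means were -0.71 and -0.74 for ESC and -1.18 and -0.87 for NPC, with a change of -0.30 with 23 lower and 11 higher. The 66 such probes of the gap changed by -0.33, with 51 lower. Shares of lower probes under this filter were not counted for the rest of the tile or the whole array. For comparison, the median change was -0.45 for these Nom1 probes and -0.24 for these Mnx1 probes, against -0.40 for 3299 such probes in the rest of the tile and -0.18 for 15111 over the whole array.

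**Figure D3:**
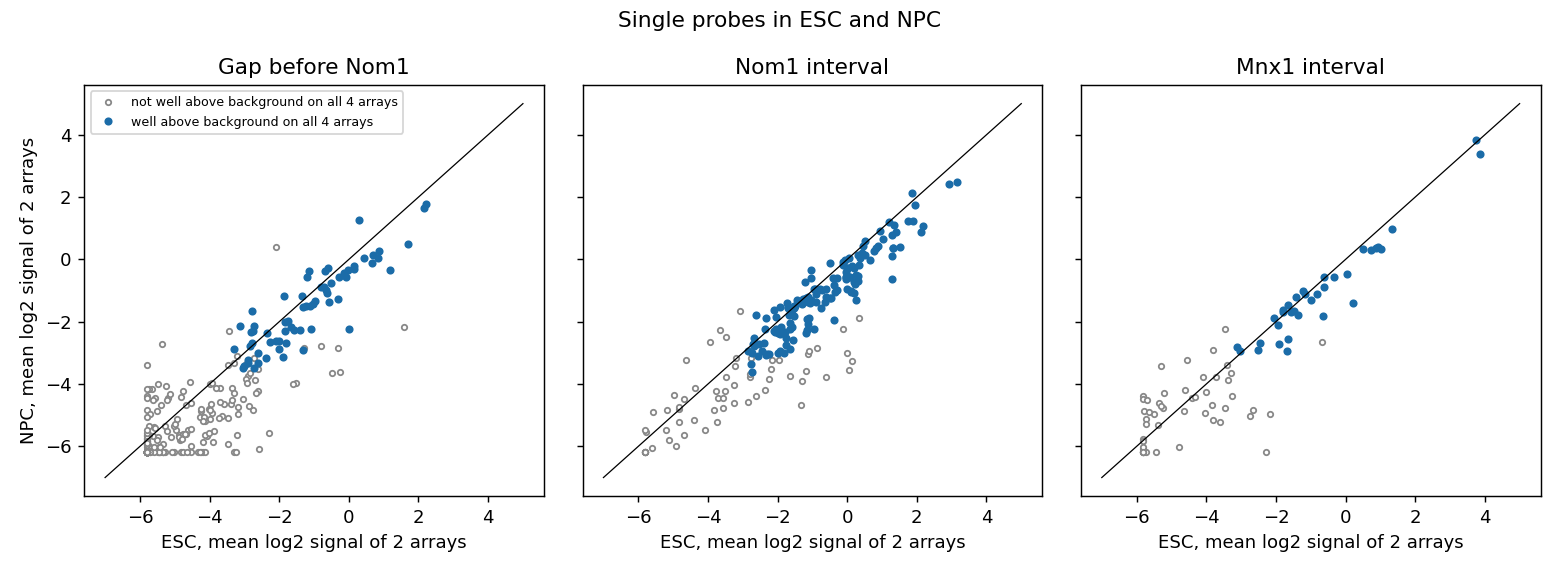
Each point is 1 probe, with its mean log2 signal in ESC (x axis) and in NPC (y axis) over 2 arrays, and the line marks equal values; filled points were well above background on all 4 arrays. Most filled points lie just below the line, 115 of 137 for Nom1, and the gap has a row of open points at the floor.

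A direct contrast of the genes within each array cancels any scaling that shifts a whole array. The difference Nom1 minus Mnx1 was 1.56 in ESC 1, 1.59 in ESC 2, 1.68 in NPC 1 and 0.74 in NPC 2. NPC 1 lay above the ESC arrays and NPC 2 below them, so the groups overlapped, and the change of this difference was -0.36 (SE 0.47, exact permutation p = 1). Nom1 minus the gap was 2.68 and 2.72 for ESC and 2.82 and 2.36 for NPC, with a change of -0.11 (SE 0.23, exact permutation p = 1). Mnx1 minus the gap was 1.13 in both ESC arrays, 1.14 in NPC 1 and 1.62 in NPC 2. These groups did not overlap, but NPC 1 was above ESC by a small margin, and the change was 0.25 (SE 0.24, exact permutation p = 0.333, the smallest that 2 against 2 arrays can give). The non-overlap was lost over probes well above background on all 4 arrays (0.031, exact permutation p = 1) and with a common floor (0.14, exact permutation p = 1). With normexp and quantile normalization the change was -0.029.

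Set against the mean of the rest of the tile within each array, Nom1 changed by -0.033 (SE 0.24) and the gap by 0.077 (SE 0.063), with exact permutation p-values of 1 and 0.333. Mnx1 changed by 0.33 (SE 0.24), from 0.61 and 0.48 in ESC to 0.64 and 1.11 in NPC, with an exact permutation p of 0.333. NPC 2 carries most of that value, and NPC 1 lay just above ESC 1.

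Of windows 5 kb long that hold 5 or more probes, 10 of the 23 windows of the stretch were called lower in NPC and 0 higher (limma, Benjamini-Hochberg). Without adjustment, 13 lower and 0 higher windows had a p under 0.05. Over the whole array 29.6% of the windows were called lower and 22.0% higher, and in the rest of the tile 50.8% were called lower, so the share of 43.5% here lies between these. The lower windows were 5 of 9 in the gap, 1 of 4 between the genes and 4 of 5 after Mnx1. None of the 4 Nom1 windows and not the 1 Mnx1 window was called. All 4 Nom1 windows were called lower with the percentile over all probes, with normexp (limma adjusted p from 0.00590 to 0.0130), with the authors' deposited values (0.00968 to 0.0140) and without NPC 1, and 2 with the replicate block (0.0479 at 29760001 and 0.0412 at 29770001). The Mnx1 window was called lower with the percentile over all probes (limma adjusted p = 0.0213) and without NPC 2 (0.0496). Without ESC 1 and without ESC 2 the count was 0, and without NPC 1 it was 20.

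The 4 Nom1 windows changed by -0.69 (SE 0.29), -0.44 (SE 0.19), -0.80 (SE 0.31) and -0.55 (SE 0.17) from 29760001 on, with limma adjusted p-values of 0.102, 0.106, 0.0831 and 0.0530. In all 4, NPC 2 was the lowest array, at -2.45, -2.20, -2.80 and -2.13, while NPC 1 read -1.65, -1.77, -1.95 and -1.78. ESC 1 read -1.31, -1.55, -1.61 and -1.38 and ESC 2 read -1.40, -1.54, -1.54 and -1.44, so NPC 1 also lay below both ESC arrays in each window, by less than NPC 2. The Mnx1 window at 29800001 had ESC levels of -3.00 and -3.04 and NPC levels of -3.39 and -3.02. It changed by -0.19 (SE 0.17, limma adjusted p = 0.374). The window with the smallest p in the gap, at 29750001, was at -4.76 and -4.78 for ESC and -5.37 and -5.30 for NPC, with a change of -0.57 (SE 0.13, limma adjusted p = 0.0254), and only 23.2% of its ESC readings were above background. Between the genes the window at 29790001 fell by 0.50 (limma adjusted p = 0.0413), and after Mnx1 that at 29805001 fell by 0.54 (limma adjusted p = 0.0375).

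In bins of 1 kb, the arrays of the groups did not overlap, with NPC lower, in 12 of 19 bins of Nom1, 3 of 6 of Mnx1, 8 of 19 between the genes, 32 of 43 of the gap and 18 of 22 after Mnx1. That is the case for 47.4% of all 4534 bins on the array. A bin with all probes at the floor counts as lower by construction, because both scaled NPC floors lie below both ESC floors. The bins of the gap at 29723001, 29736001 and 29742001 are of this kind. The counts of the gap and after Mnx1, where probes at the floor are most common, are therefore not read as a measured fall. NPC lay above ESC without overlap in 1 bin of the gap and in 0 bins of either gene, against 27.6% on the array.

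Single probes gave 9 lower and 0 higher calls among 1018 tested (limma, Benjamini-Hochberg over 47900 probes), or 67 and 13 at an unadjusted p under 0.05. Over the array 1.58% of the probes were called lower and 10.8% higher. The gap held 3 of the lower calls, the part between the genes 2, the part after Mnx1 2, Nom1 1 and Mnx1 1. In the gap, the called probes at 29725621 and 29754843 sat at the floor in NPC 1 and NPC 2, as did both called probes between the genes. The remaining gap probe, at 29760812, lies in the bin at 29760001, where the run over Nom1 began. With probes at the floor on any array left out, 0 probes of the stretch were called lower. With each array scaled to the median of its SRN spots the counts of the stretch were 6 lower and 5 higher. Both called probes between the genes were not well above background on any array.

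The called Mnx1 probe, at chromosome 5: 29803423-29803482, read -2.59 and -1.99 in ESC 1 and ESC 2, well above background in both, and sat at the floor in NPC 1 and NPC 2, at least 2.97-fold higher in ESC (limma adjusted p = 0.0115). For such a probe the bright group is set against the lowest signal that counts as well above background on the dim arrays, which gives a lower bound. The 3 probes before it were marked well above background on each of the 4 arrays and changed by 0.24, 0.044 and 0.31. The 3 after it were not well above background on most arrays, in ESC as in NPC, and have no measured difference.

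The called Nom1 probe, at 29770572-29770631, read -2.62 and -2.12 in ESC and -4.28 and -4.07 in NPC, where it was not well above background, at least 2.81-fold higher in ESC (limma adjusted p = 0.0489). This call was lost without any 1 of the 4 arrays, with adjusted p-values from 0.0559 to 0.244. The brightest probe of each gene did not differ beyond its spread. That of Nom1, at 29761580, read 3.70, 2.59, 2.38 and 2.57 in ESC 1, ESC 2, NPC 1 and NPC 2 (change -0.67, SE 0.48, limma adjusted p = 0.420). That of Mnx1, at 29800657, read 4.27, 3.25, 3.56 and 4.10, with a change of 0.071 (SE 0.49, limma adjusted p = 0.933) that was -0.32 with the percentile taken over all probes.

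Of the 199 Nom1 probes tested, 37 had a change above 0, and none of these was called. The probe at 29767585-29767644 read -3.85 and -3.47 on the ESC arrays, 1 of which was well above background, and -2.26 and -2.25 on the NPC arrays, a change of 1.40 (SE 0.31, limma adjusted p = 0.0728). The one at 29767465-29767524 read -3.90 and -3.99 in ESC, not well above background, and -2.81 and -2.52 in NPC, at least 1.76-fold higher in NPC (limma adjusted p = 0.0829). Neither passed. They belong to a run of 4 adjacent probes, 29767405-29767644, in which both NPC arrays exceeded both ESC arrays, the longest such run in either gene interval and one chosen after its values were seen. In it 2 of 8 ESC readings and 8 of 8 NPC readings were well above background, so no size is given for the difference. The means of the run overlapped between the groups in the authors' deposited values, at 5.39 in ESC 1, 4.66 in ESC 2, 5.07 in NPC 1 and 5.30 in NPC 2. That overlap rests on the ESC 1 column, which did not follow its own scanner signals.

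In Mnx1, the other probes singled out by the smallest p were one at 29801497-29801556, at -3.14 and -2.18 in ESC and -5.41 and -4.23 in NPC (at least 2.31-fold higher in ESC, limma adjusted p = 0.125), and one at 29802020-29802079, at -4.88 and -4.23 in ESC and -3.38 and -3.08 in NPC (at least 1.19-fold higher in NPC, limma adjusted p = 0.129). They point in opposite directions within the same gene, and neither passed.

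**Figure D4:**
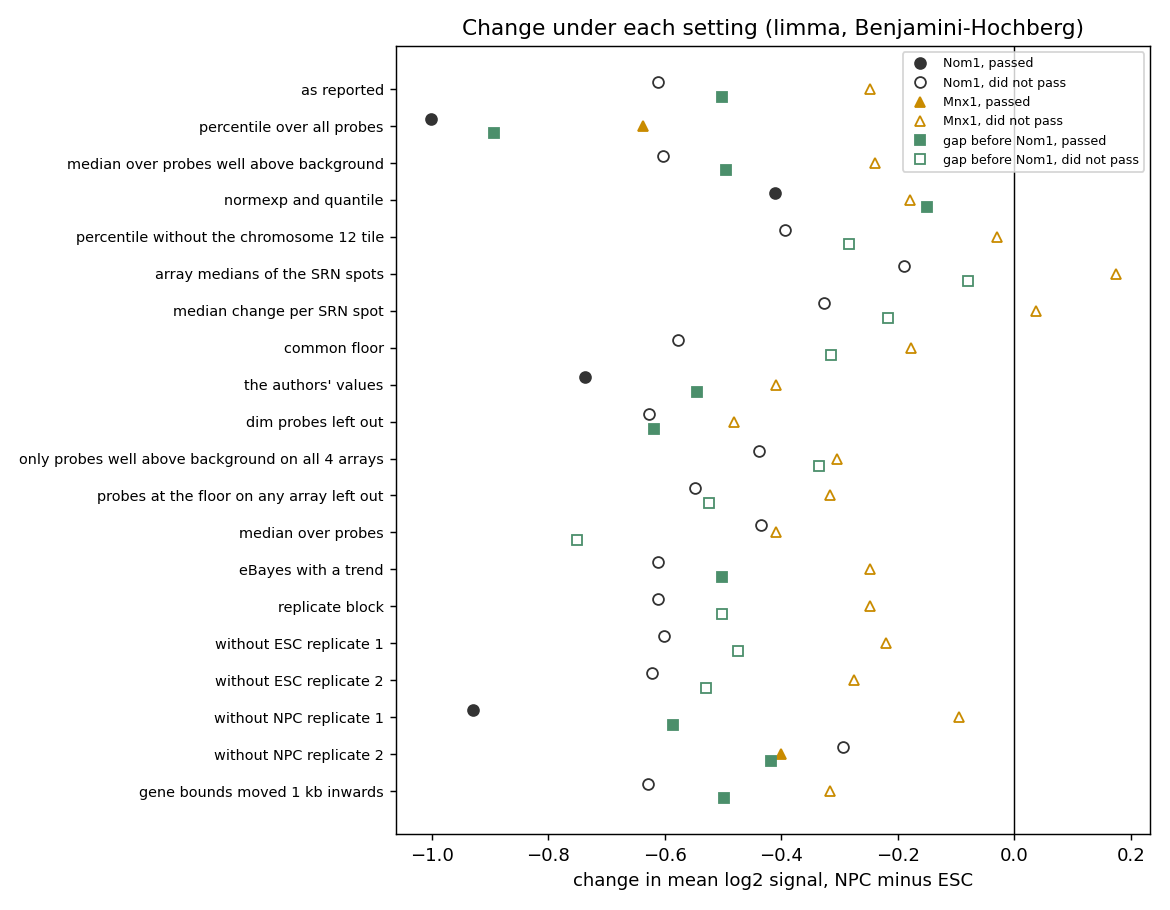
Change in mean log2 signal, NPC minus ESC (x axis), of the Nom1 interval, the Mnx1 interval and the gap before Nom1 under each setting tried (y axis); filled symbols passed the limma test after Benjamini-Hochberg adjustment and open ones did not. Nom1 and the gap stay below 0 in every setting shown, and Mnx1 lies above 0 with the SRN spots as the scale (0.17 and 0.037).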

How the data were processed

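Nuclear RNA of 2 ESC and 2 NPC samples was read on 1-colour Agilent tiling arrays, 4 in all, on 1 slide and in 1 scan. Per the labels' protocols, RNA was extracted with TRIzol from chromatin prepared without RNase, put through whole-transcriptome amplification and random-primed with the Cy3 dye. The deposited spot intensity was made with Agilent Feature Extraction 11.5.1.1, per the file headers, which subtracted background and gave low spots an array-wide floor. It is not normalized across the arrays. The other marks (well above background, saturated, outlier, control) are those of the same software, per the file headers. The probes are placed on mm9, per the file headers.

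Groups came from the sample titles. Log2 intensity minus the 75th percentile of each array, taken over 15356 probes well above background on all 4 arrays, was averaged over 5 kb windows (at least 5 probes) and over 5 intervals and compared between NPC and ESC by lmFit and eBayes of limma 3.58.1 (R 4.3.3), with Benjamini-Hochberg adjustment over 969 tests at a threshold of 0.05. Single probes were fitted likewise (47900). Outlier spots (11 in the stretch) and 3188 control spots were left out of the tests. Differences within arrays and shares were tested with two-sided exact permutation tests. The number of arrays limits the precision. On simulated windows all changes of 1 and of 2 (log2, 100 each among 969) were called, and 0.520% of the unchanged. The simulated windows all had the same spread and independent noise, whereas the SE of windows in the stretch ran from 0.13 to 0.39. These shares therefore check the code and do not give the power or error rate for these data. Figures were drawn with matplotlib 3.10.9.

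The members, intervals and lists were chosen with earlier results of these data known. The text names every window with its midpoint inside a gene interval, and the window of smallest p in each other interval. The window at 29760001 thus counts for Nom1, though it begins before that interval. In each gene the text names the brightest probe. It also names the 3 probes of smallest p among those well above background on both arrays of a group. Other probes it names were chosen after their values were seen. Alternatives tried were other scales, normexp with quantile normalization, a common floor, filters on dim probes, medians, other window sizes and interval bounds, a trend, a replicate block and each array left out. For normexp the median spot signal was used in place of the mean. The table of deposited log2 values served as an alternative. limma is named in the submitters' processing notes; the normalization is not given in the sources used here. In that table the ESC 1 column did not follow its own scanner signals (Spearman's rho 0.873, against 1 for the others), and 179 probes of the stretch have no value. The sample titles do not state whether same-numbered samples were paired. The correlation of same-numbered deviations was 0.047, which cannot decide this with 2 pairs.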

Additional observations from a re-analysis of the deposited data

How the results depend on the processing

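Of the settings, 2 were chosen after seeing the data: keeping the probes that all 4 arrays marked well above background, and leaving out probes at the floor. In the values below a second number is the limma adjusted p. The 10 lower windows of the stretch became 23 when the percentile was over all probes, 17 in the authors' deposited values, 6 with the median as the scale, 6 with dim probes left out, 4 with either added filter, 3 with the replicate block, 3 with windows of 2 kb, 1 with the median over probes, and 0 without the chromosome 12 tile, with either SRN scale and with a common floor. With 1 array left out the count ran from 0 (without ESC 1 or ESC 2) to 20 (without NPC 1). No setting called a window higher. The 9 lower probes became 18 (normexp), 14 (percentile over all probes), 5 (without the chromosome 12 tile), 5 (authors' values), 3 (replicate block) and 0 (either added filter), and 10 to 89 with 1 array left out, the most without NPC 1. The 0 higher probes became 5 and 2 (SRN scales), 2 (common floor) and 1 (dim probes left out), and 1 to 12 with 1 array left out.

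The change of Nom1 passed with the percentile over all probes (-1.0, 0.000367), normexp (-0.41, 0.00825) and the authors' values (-0.74, 0.0111), was -0.39, -0.19 and -0.33 without the chromosome 12 tile and on the SRN scales, and ran from -0.93 to -0.29 with 1 array left out. Between the genes it passed with the same settings (-0.78, 0.00186; -0.19, 0.0294; -0.52, 0.0266), turned to 0.031 with the SRN medians, and ran from -0.61 (without NPC 1, 0.0140) to -0.17. That of Mnx1 passed with the percentile over all probes (-0.64, 0.0115), turned to 0.17 and 0.037 on the SRN scales, and ran from -0.40 to -0.095. The fall of the gap was no longer called without the chromosome 12 tile (-0.28), with the SRN scales (-0.080 and -0.22), a common floor (-0.32), the added filters (-0.33 and -0.52), the median over probes (-0.75) and the replicate block (-0.50, 0.0704), and ran from -0.59 to -0.42 with 1 array left out. The fall after Mnx1 was no longer called in the same order (-0.28, -0.071 and -0.21, -0.34), with probes at the floor left out (-0.41), the median over probes (-0.56) and the block (-0.49, 0.0727), and ran from -0.55 to -0.43. Of the other intervals the block changed no call. The cause of these moves was not tested, beyond the shift each scale gives to the median of all windows: -0.34 as reported, -0.73 (percentile over all probes), -0.33 (median), -0.13 (normexp), -0.12 (without the chromosome 12 tile), 0.087 and -0.050 (SRN scales), -0.18 (common floor) and -0.42 (authors' values).

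Nom1 minus the gap turned to 0.31 with the median over probes and ran from -0.34 to 0.12 (without NPC 2). Mnx1 minus the gap turned to -0.029 with normexp and ran from 0.018 to 0.49. Nom1 minus Mnx1 ran from -0.83 to 0.11 (without NPC 2). The changes in share ran from -10.1 to 0.66 percentage points over Nom1, from -3.63 to 1.51 between the genes and from -6.55 to 10.1 over Mnx1. The Mnx1 window turned to 0.028 (without the chromosome 12 tile), 0.23 and 0.095 (SRN scales). The brightest Mnx1 probe turned to -0.32 with the percentile over all probes and ran from -0.44 (without ESC 2) to 0.58, with -0.20 without NPC 2. Spots at the floor have no order, which limits the gap and the part after Mnx1 most.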
